A study of Mus musculus with 24 samples.

Results

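The genes described here mark the contractile type of adult skeletal muscle fibres. They were chosen by name: 7 slow-fibre genes (Myh7, Tnni1, Tnnc1, Tpm3, Atp2a2, Myl2 and Myl3) and 3 fast-fibre genes (Myh1, Myh2 and Myh4). Of these 10 genes, 9 had a named probe among the 16593 genes of the array, all 7 slow genes and 2 of the fast genes, with 14 probes in all of 25697. Myh2 had no named probe and was not analysed here.

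Adult fibres differ in the myosin heavy chain that drives their contraction. Slow, oxidative fibres use Myh7 together with slow troponins and a slow calcium pump, and fast fibres use Myh2, Myh1 or Myh4, from the more oxidative and fatigue resistant to the fastest and most glycolytic. The diaphragm, the muscle of breathing, is never at rest for long, and in the mouse it is built mostly of fast fibres that carry Myh1 and Myh2, with fewer slow fibres. Fibre type follows nerve activity and calcium signals, and it can shift after injury and regeneration.

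RNA was taken from diaphragms of Rag1-/- mice, which lack mature T and B cells, of PHIL mice, whose eosinophils are ablated by a toxin transgene, and of WT C57BL/6 mice. Infected mice of each strain were given 25000 newborn larvae (NBL) of Trichinella spiralis by vein and were killed at 2 or 7 days post injection (dpi), and naive mice were not infected. NBL leave the circulation and enter skeletal muscle fibres, so the larvae in these muscles began at the same time. Each strain had 2 naive mice, 3 mice at 2 dpi and 3 mice at 7 dpi, with 1 array per mouse and 24 arrays in all. The Rag1-/- and PHIL lines are on the C57BL/6 background. The ages and sexes of the mice are not given in the labels.

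Signals were measured on Illumina MouseRef-8 v2.0 arrays. The 8 Rag1-/- arrays were brighter than the others, with median deposited signals of 295.1 to 333.4 and 10340 to 11740 detected probes per array, against 106.3 to 131.9 and 8847 to 10627 on the 16 PHIL and WT arrays. The Rag1-/- arrays were therefore normalised on their own, and levels of the 2 sets are not on 1 scale unless stated. Median deposited signals also differed by time among the PHIL and WT arrays. They were 126.5 to 131.9 in PHIL and 121.2 to 131.5 in WT mice at 7 dpi. In naive mice they were 111 and 112.6 in PHIL and 106.3 and 113.2 in WT mice. Deposited signals given below for naive and 7 dpi mice are not corrected for this difference. Values below are normalised log2 signals, 1 value per array. A gene or probe was called when limma's Benjamini-Hochberg adjusted p was at most 0.05 and the change was at least 1.5-fold, which is 0.59 on the log2 scale. The number of arrays, 2 naive and 3 infected, limits the precision of every change. All 14 probes were detected on 8 of 8 Rag1-/- arrays, and on 16 of 16 PHIL and WT arrays except Myh4, detected on 13, and 3 of the 4 Tpm3 probes, detected on 5, 11 and 7. Several slow genes are also genes of the heart, and of 11 cardiac marker genes 7 were detected on no array, among them Tnni3, Mybpc3, Myl7 and Ryr2, while Myh6 and Gja5 had 1 probe each detected on 24 of 24 arrays, Nppb was detected on 6 and Nppa on 1. Eif2s3y, a Y-linked gene, was detected on 8 of 8 Rag1-/- arrays, 2 of 8 PHIL arrays and 4 of 8 WT arrays, so the groups differ in how often it was detected. The Rag1 probe was detected on 1 of 24 arrays and the eosinophil genes Epx and Prg2 on 0, so these probes do not check the labels. T and B cell markers, 5 of 11 measured, were detected on no Rag1-/- array at 7 dpi, where their summed linear signal was 147 to 191, against 1823 to 2852 in PHIL mice and 874 to 1374 in WT mice.

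By 7 dpi most of the fibre-type genes were lower in Rag1-/- muscle. Of the 9 genes, 7 were lower than in naive muscle and 0 higher (4 lower without naive replicate 1), where 32.5% of all 8660 genes tested were called and 14.9% were called lower. The 7 were 5 of the 7 slow genes (Myh7, Tnni1, Tpm3, Atp2a2 and Tnnc1) and both fast myosins, and Myl2 and Myl3 were not called. In PHIL muscle 4 of 9 were lower (Myh7, Tnni1, Tpm3 and Myh1; 26.5% of genes called, 11.6% lower), and in WT muscle 2 of 9 (Myh7 and Myh1; 28.1% called, 11.8% lower). With the arrays scaled to a common median instead, which moved the median of all genes to 0.39 in PHIL and 0.36 in WT muscle, 0 of the 9 were called in either strain. None was called higher in any of the 3 strains when each gene was read by 1 probe, although 1 further Tpm3 probe was higher in PHIL and WT muscle, as given below. Atp2a2 was read by ILMN_1239742 in Rag1-/- muscle and by ILMN_1245425 in PHIL and WT muscle. Myh1 was read by ILMN_2865744 in Rag1-/- muscle and by ILMN_2740259 in the others. The counts of the strains are therefore not like for like for these 2 genes.

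**Figure D1:**
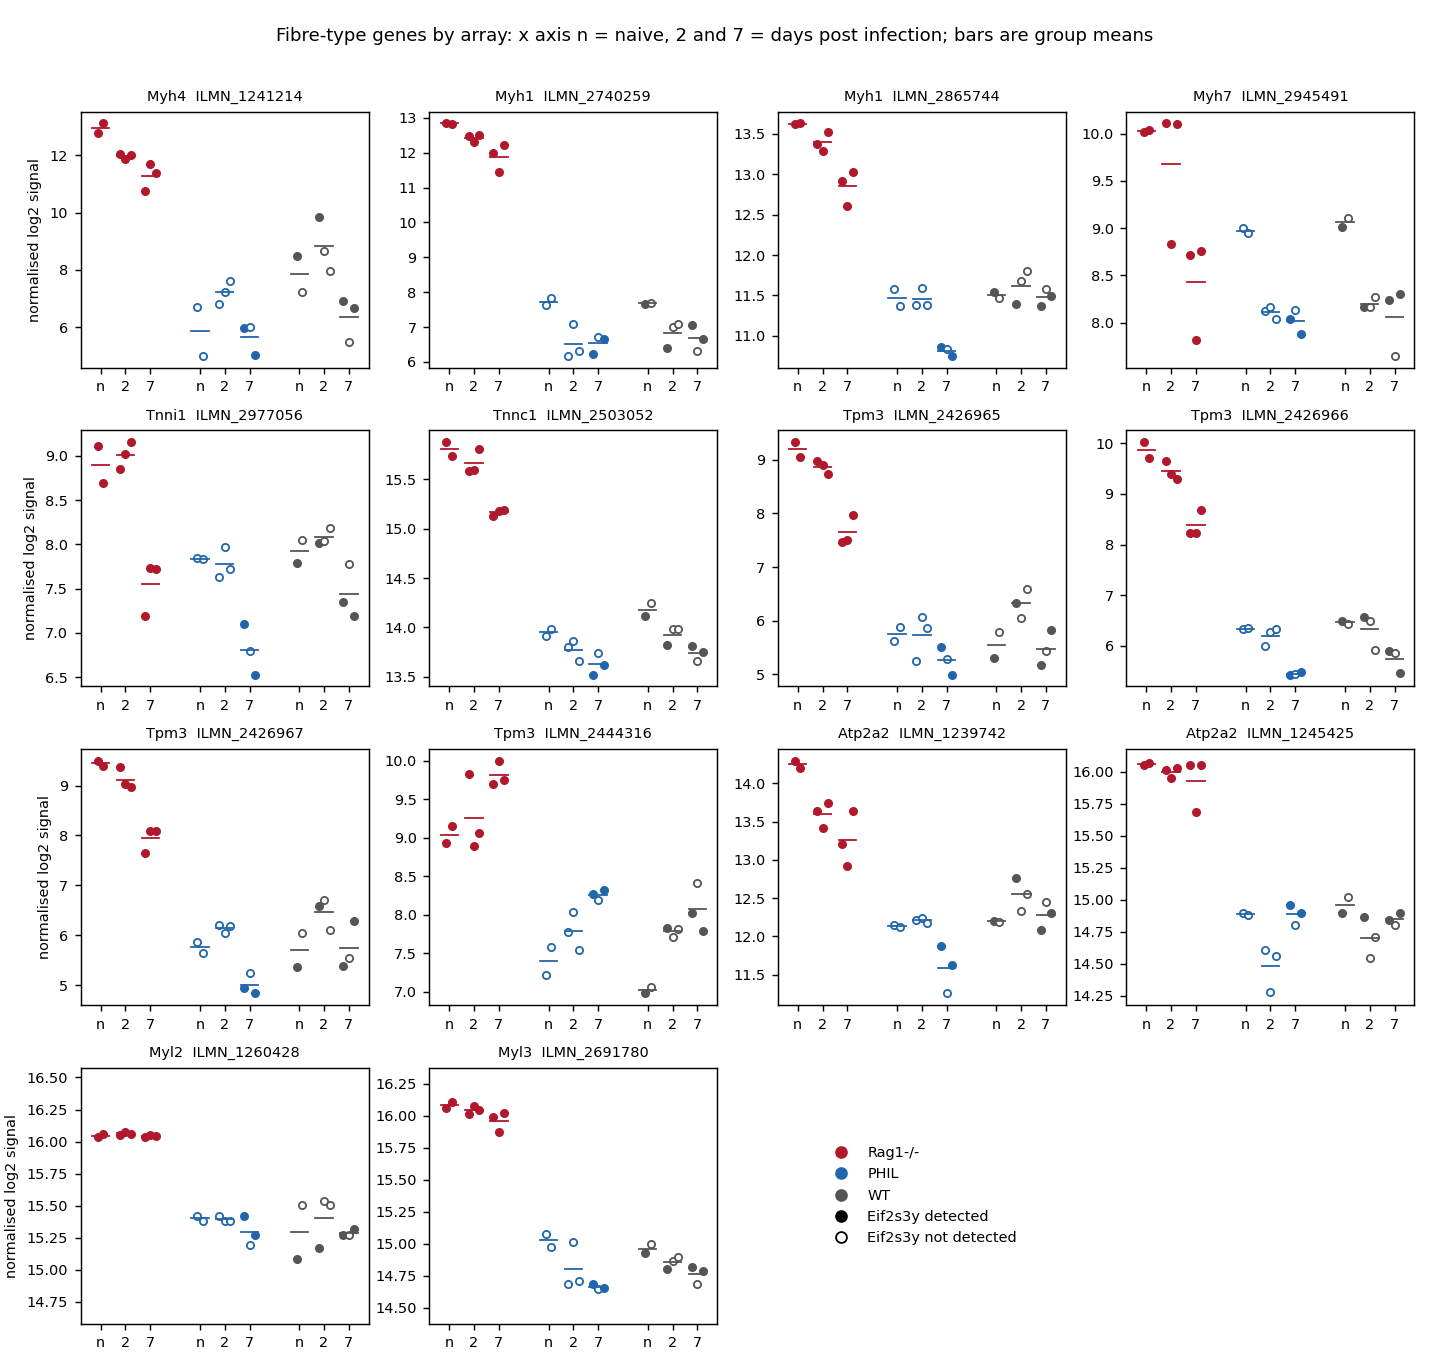
Normalised log2 signal (vertical axis) of each of the 14 probes of the 9 genes on each array, for naive (n), 2 dpi (2) and 7 dpi (7) mice of the Rag1-/-, PHIL and WT strains; each point is 1 mouse, bars are group means, and filled points are arrays on which Eif2s3y was detected. The Rag1-/- arrays were normalised separately from the PHIL and WT arrays, so heights are compared within a strain; Myh7 lay below its naive points at 7 dpi in all 3 strains.

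Myh7 encodes the slow, beta myosin heavy chain. In Rag1-/- muscle it measured 10.02 and 10.04 in naive mice, 10.11, 8.83 and 10.10 at 2 dpi, and 8.71, 7.82 and 8.76 at 7 dpi. All 3 mice at 7 dpi lay below both naive mice, while at 2 dpi 1 mouse was low and the other 2 were at the naive level. The change at 7 dpi against naive was 3.02-fold, a log2 change of -1.60 (SE 0.42, adjusted p = 0.0253, 95% interval -2.57 to -0.62). The call was lost without any of 3 arrays (naive 1, adjusted p = 0.0928; naive 2, 0.0944; 7 dpi replicate 2, 0.0642).

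In PHIL muscle Myh7 measured 9.0 and 8.95 in naive mice, 8.13, 8.16 and 8.04 at 2 dpi, and 8.04, 8.13 and 7.88 at 7 dpi. In WT muscle it measured 9.02 and 9.11 in naive mice, 8.17, 8.16 and 8.27 at 2 dpi, and 8.24, 7.65 and 8.30 at 7 dpi. In both strains every infected mouse lay below every naive mouse, and the 2 infected times overlapped each other. The fall was 1.82-fold at 2 dpi in PHIL muscle (log2 -0.86, SE 0.16, adjusted p = 0.00124) and 1.82-fold in WT muscle (log2 -0.86, SE 0.16, adjusted p = 0.000867). At 7 dpi it was 1.94-fold in PHIL muscle (log2 -0.95, SE 0.16, adjusted p = 0.000337) and 2.00-fold in WT muscle (log2 -1.0, SE 0.16, adjusted p = 0.000223). The calls at 7 dpi rest in part on the normalisation, since the deposited signals at 7 dpi spanned 392.9 to 450.6 in PHIL mice and 367.4 to 479.7 in WT mice, against 418.5 to 462.2 in naive PHIL mice and 415.1 to 500.2 in naive WT mice, which overlap. At 2 dpi the deposited signals lay below the naive ones, at 328 to 342 in PHIL mice and 354.9 to 410.4 in WT mice. With the arrays scaled to a common median the WT change at 2 dpi was -0.48 and was not called. Myh7 was called lower at both infected times in PHIL and in WT muscle, and so was Myh1 on ILMN_2740259. The Myh1 call in WT muscle at 2 dpi was lost without any of 3 arrays, and its other probe gave 0.12. The share of all genes called lower in all of these comparisons was not counted.

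Tnni1 encodes the slow skeletal troponin I, the inhibitory subunit of the calcium switch. It measured 9.11 and 8.69 in naive Rag1-/- mice, 8.85, 9.03 and 9.16 at 2 dpi, and 7.19, 7.73 and 7.73 at 7 dpi. The 2 dpi mice overlapped the naive mice and the 7 dpi mice lay below all of them. The fall at 7 dpi against naive was 2.55-fold (log2 -1.35, SE 0.21, adjusted p = 0.00292), and against 2 dpi it was 2.75-fold (log2 -1.46, SE 0.19, adjusted p = 0.00125).

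In PHIL muscle Tnni1 measured 7.84 and 7.84 in naive mice, 7.64, 7.97 and 7.72 at 2 dpi, and 7.10, 6.80 and 6.53 at 7 dpi. The 7 dpi mice again lay below all others, by 2.05-fold against naive (log2 -1.03, SE 0.18, adjusted p = 0.000561). This call rests in part on the normalisation. The deposited signals overlapped, at 210.1 to 278.7 at 7 dpi against 231.3 to 246.6 in naive PHIL mice. With the arrays scaled to a common median the change was -0.44 and was not called (adjusted p = 0.103). In WT muscle it measured 7.79 and 8.05 in naive mice, 8.01, 8.04 and 8.18 at 2 dpi, and 7.35, 7.78 and 7.19 at 7 dpi. Here 1 of the 7 dpi mice lay only just below the lower naive mouse, and the change against naive was -0.48 on the log2 scale, below the fold threshold (adjusted p = 0.0433), while the change against 2 dpi was -0.64 (SE 0.16, adjusted p = 0.00749) and was called. Without 2 dpi replicate 3 or 7 dpi replicate 3 that change was -0.59 or -0.52 and was no longer called. Deposited WT signals overlapped too, at 249.8 to 393.1 at 7 dpi against 217.5 to 272.5 in naive mice.

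Tnnc1, the troponin C of slow and cardiac muscle, was strongly expressed. In naive Rag1-/- mice its signal was 81.9 to 88.7% of the brightest probe on the array. How far the top of the scale limits its change there was not tested. In Rag1-/- muscle it measured 15.88 and 15.74 in naive mice, 15.58, 15.59 and 15.81 at 2 dpi, and 15.13, 15.18 and 15.19 at 7 dpi. The 7 dpi mice lay closely together below the other 5, and the fall was 1.56-fold (log2 -0.64, SE 0.13, adjusted p = 0.00763; without naive replicate 1, 0.0568). At 7 dpi the change was -0.33 in PHIL muscle (adjusted p = 0.0231) and -0.44 in WT muscle (adjusted p = 0.0045), both under the fold threshold. Myl3 and Myl2, the light chains of the slow fibre and the heart ventricle, were called in no comparison with naive muscle. Myl2 in Rag1-/- muscle spanned 16.03 to 16.05 at 7 dpi, against 16.03 to 16.06 in naive mice. Its signal there was 93.5 to 98.4% of the brightest probe on the array and that of Myl3 was 86.7 to 100%, close to the top of the scale. On the dimmer PHIL and WT arrays the largest change of Myl3 was -0.36 at 7 dpi in PHIL muscle (adjusted p = 0.0147).

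Atp2a2, the slow and cardiac calcium pump of the sarcoplasmic reticulum, was read by 2 probes that disagreed. ILMN_1239742 measured 14.30 and 14.20 in naive Rag1-/- mice, 13.64, 13.41 and 13.75 at 2 dpi, and 13.21, 12.93 and 13.64 at 7 dpi. Every infected Rag1-/- mouse lay below both naive mice on this probe, and the change at 7 dpi was 1.98-fold (log2 -0.99, SE 0.21, adjusted p = 0.0105; in the fit of 1 probe per gene without naive replicate 1, 0.0598). ILMN_1245425 spanned 15.68 to 16.05 at 7 dpi, against 16.05 and 16.07 in naive Rag1-/- mice, and its change of -0.13 was not called (adjusted p = 0.522). The second probe stood at 78 to 98.5% of the array maximum on these arrays. In PHIL muscle ILMN_1239742 measured 12.15 and 12.12 in naive mice, 12.21, 12.24 and 12.18 at 2 dpi, and 11.87, 11.25 and 11.63 at 7 dpi. The PHIL mice at 7 dpi lay below the rest, with a change of -0.55 against naive (adjusted p = 0.0154), short of the fold threshold. In WT muscle it measured 12.21 and 12.18 in naive mice, 12.76, 12.33 and 12.56 at 2 dpi, and 12.08, 12.45 and 12.30 at 7 dpi, where naive and 7 dpi mice overlapped.

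Tpm3 encodes the slow-fibre alpha tropomyosin and, through other promoters and exons, tropomyosins of non-muscle cells. Its 4 probes fell into 2 patterns. ILMN_2426965, ILMN_2426966 and ILMN_2426967 were lower in Rag1-/- muscle at 7 dpi by 2.93-fold, 2.80-fold and 2.84-fold (log2 -1.55, -1.49 and -1.50, with adjusted p = 0.000787, 0.00118 and 0.000976). ILMN_2426967 measured 9.50 and 9.39 in naive Rag1-/- mice, 9.36, 9.03 and 8.97 at 2 dpi, and 7.65, 8.09 and 8.08 at 7 dpi, with the 7 dpi mice far below the rest. ILMN_2444316 measured 8.93 and 9.15 in naive Rag1-/- mice, 9.83, 8.89 and 9.07 at 2 dpi, and 9.70, 10.01 and 9.75 at 7 dpi. All 3 mice at 7 dpi lay above both naive mice on that probe, though the change of 0.77 was not called (SE 0.26, adjusted p = 0.0616).

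The same probe was called higher in the other strains. ILMN_2444316 measured 7.22 and 7.58 in naive PHIL mice, 7.78, 8.03 and 7.55 at 2 dpi, and 8.27, 8.19 and 8.32 at 7 dpi. In WT mice it measured 6.98 and 7.05 naive, 7.82, 7.71 and 7.82 at 2 dpi, and 8.02, 8.42 and 7.79 at 7 dpi. The 7 dpi mice of both strains lay above their naive mice, by 1.82-fold in PHIL muscle (log2 0.86, SE 0.17, adjusted p = 0.00139) and 2.09-fold in WT muscle (log2 1.06, SE 0.17, adjusted p = 0.00029). The other 3 Tpm3 probes were at or near the detection limit there. ILMN_2426966 was not detected on any PHIL array at 7 dpi. Its normalised signal was called lower there than in naive PHIL muscle (adjusted p = 0.00142), and no fold is given. In WT muscle its normalised change was -0.73 (SE 0.18, adjusted p = 0.00489). Both calls rest on the normalisation. The deposited signals spanned 138.5 to 147.5 at 7 dpi against 138.2 to 142.5 in naive PHIL mice. In WT mice they spanned 135 to 168 against 137.8 to 145.6. ILMN_2426967, the probe that stands for the gene in the counts, was detected on no naive or 7 dpi PHIL array, so its call there (adjusted p = 0.0295) carries no fold, and it was lost without any array but 7 dpi replicate 2 (adjusted p up to 0.156). Which transcripts each Tpm3 probe reads was not tested. Macrophage markers moved with time in the same muscles: the summed linear signal of the 9 of 13 listed markers that were measured was 12586 to 16329.8 at 7 dpi in Rag1-/- mice against 2981 to 3157 in naive ones, 10685 to 14060.0 against 2986 to 3319.9 in PHIL mice, and 9297 to 11916 against 2335 to 2708 in WT mice, and their part in these results was not tested.

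The fast myosins lie side by side. Myh2, Myh1 and Myh4 follow each other on chromosome 11, in a cluster with the developmental genes Myh3 and Myh8. Their promoters are shown because the members of this cluster share sequence just before their start sites, as the 250 bases before each RefSeq start show (GRCm38.p6, plus strand, 5′ to 3′). In Myh1 and Myh4 capitals mark runs of 12 or more bases shared between those 2 promoters, and in Myh2 they mark runs shared with Myh1 or with Myh4.
Myh2 chr11:67170777-67171026: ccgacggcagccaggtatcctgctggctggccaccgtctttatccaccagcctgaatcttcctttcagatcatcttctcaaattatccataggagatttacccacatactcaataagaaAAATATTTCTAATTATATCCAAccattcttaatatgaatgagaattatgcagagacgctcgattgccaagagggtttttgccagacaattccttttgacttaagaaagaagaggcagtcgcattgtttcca
Myh1 chr11:67199852-67200101: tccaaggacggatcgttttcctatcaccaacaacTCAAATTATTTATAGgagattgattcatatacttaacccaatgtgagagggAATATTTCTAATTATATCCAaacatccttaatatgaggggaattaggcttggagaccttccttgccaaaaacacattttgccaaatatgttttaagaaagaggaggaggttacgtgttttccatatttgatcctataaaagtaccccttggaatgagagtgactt
Myh4 chr11:67237562-67237811: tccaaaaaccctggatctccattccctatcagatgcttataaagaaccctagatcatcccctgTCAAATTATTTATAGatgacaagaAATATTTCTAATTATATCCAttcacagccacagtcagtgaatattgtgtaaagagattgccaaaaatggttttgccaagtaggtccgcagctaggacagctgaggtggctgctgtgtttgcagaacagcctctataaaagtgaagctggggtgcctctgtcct
Myh1 and Myh4 share 2 such runs, the longer of 20 bases, beginning 165 bases before the Myh1 start and 163 before the Myh4 start, and Myh2 shares 1 run of 21 bases with each. Of all RefSeq promoters of this length, 0.527% share a run of 12 bases with Myh1 and 0.454% with Myh4. The consensus of the muscle factor MEF2 was matched on either strand in the Myh1 and Myh4 windows and in no other of the 13 promoters found for 9 of the 10 genes, where 2.92% of 32851 promoters hold a match. The TATAAA motif, searched on both strands, lay 32 and 31 bases before the Myh1 and Myh4 starts, and 12.4% of promoters hold it. In each of them another TATAAA match overlaps the MEF2 match. A match is a string of letters, and no binding was measured.

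Myh4, the heavy chain of the fastest fibres, changed more than Myh1 in Rag1-/- muscle at 7 dpi. It measured 12.79 and 13.12 in naive Rag1-/- mice, 12.05, 11.87 and 12.003 at 2 dpi, and 10.76, 11.70 and 11.38 at 7 dpi. The 3 times did not overlap, each later one lying below the one before. Myh4 was 1.97-fold lower at 2 dpi (log2 -0.98, SE 0.26, adjusted p = 0.0236), the 1 gene of the 9 called at that time in Rag1-/- muscle, where 9.85% of genes were called. That call was lost without any of the 5 arrays but 2 dpi replicate 1 (adjusted p of 0.0508 to 0.130). At 7 dpi it was 3.19-fold lower than in naive muscle (log2 -1.68, SE 0.26, adjusted p = 0.00252, 95% interval -2.26 to -1.09).

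In WT muscle Myh4 varied widely between mice. It measured 8.47 and 7.24 in naive WT mice, 9.85, 8.66 and 7.96 at 2 dpi, and 6.93, 5.50 and 6.68 at 7 dpi. The 7 dpi mice lay below all the others, and the 2 dpi mice overlapped the naive ones. The change at 7 dpi was -1.49 against naive, not called (SE 0.61, adjusted p = 0.0587), and -2.46 against 2 dpi, a 5.48-fold difference that was called (SE 0.55, adjusted p = 0.00315). The highest value among naive and among 2 dpi WT mice came from the mouse with Eif2s3y detected, and at 7 dpi the lowest came from the mouse without it. In PHIL muscle at 7 dpi the order was the other way. The lowest value there came from a mouse with Eif2s3y detected, and the highest from the mouse without it. With detection of Eif2s3y as a term, chosen after seeing the data, the change between 2 and 7 dpi in WT muscle was -2.74 (adjusted p = 0.000959) and that against naive was -1.63 (adjusted p = 0.0238), which was then called. In PHIL muscle Myh4 measured 6.72 and 4.99 in naive mice, 6.82, 7.22 and 7.61 at 2 dpi, and 5.96, 6.02 and 5.04 at 7 dpi. Naive and 7 dpi PHIL mice overlapped (log2 -0.18, not called), and the fall between 2 and 7 dpi was 2.91-fold (log2 -1.54, SE 0.55, adjusted p = 0.0368). It was called only with all 6 arrays or without 2 dpi replicate 1, with adjusted p of 0.0505 to 0.136 otherwise.

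Myh1 encodes the heavy chain of fast fibres between those of Myh2 and Myh4, and 2 probes read it. ILMN_2865744 measured 13.62 and 13.63 in naive Rag1-/- mice, 13.37, 13.29 and 13.52 at 2 dpi, and 12.92, 12.60 and 13.03 at 7 dpi. The 3 times did not overlap, and the change at 7 dpi was 1.71-fold (log2 -0.77, SE 0.15, adjusted p = 0.00825). ILMN_2740259 gave -0.95 for the same comparison (SE 0.21, adjusted p = 0.0125). So both Myh1 probes were called lower in Rag1-/- muscle at 7 dpi.

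In the other strains the 2 Myh1 probes parted. ILMN_2740259 measured 7.64 and 7.82 in naive PHIL mice, 6.16, 7.08 and 6.32 at 2 dpi, and 6.22, 6.73 and 6.65 at 7 dpi. In WT mice it measured 7.66 and 7.69 naive, 6.40, 7.00 and 7.10 at 2 dpi, and 7.05, 6.33 and 6.67 at 7 dpi. Every infected mouse lay below every naive mouse on this probe, with changes at 7 dpi of -1.20 in PHIL muscle (SE 0.28, adjusted p = 0.00357) and -0.99 in WT muscle (SE 0.28, adjusted p = 0.0102; in the fit of 1 probe per gene without naive replicate 2, 0.0569). Deposited WT signals overlapped, at 201.7 to 260.8 at 7 dpi against 205.1 to 229.9 in naive mice. Those of PHIL mice did not, at 190.3 to 220.7 against 224.8 to 229.6. With the arrays scaled to a common median the changes were -0.62 in PHIL muscle (adjusted p = 0.0516) and -0.40 in WT muscle (0.210), not called. ILMN_2865744 measured 11.58 and 11.37 in naive PHIL mice, 11.38, 11.60 and 11.38 at 2 dpi, and 10.86, 10.83 and 10.75 at 7 dpi. It measured 11.55 and 11.46 in naive WT mice, 11.39, 11.67 and 11.80 at 2 dpi, and 11.37, 11.59 and 11.49 at 7 dpi. On this brighter probe the PHIL mice at 7 dpi lay below all other PHIL and WT mice (log2 -0.66 against naive PHIL, SE 0.13, adjusted p = 0.00109), while naive and 7 dpi WT mice overlapped (log2 -0.02, not called).

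**Figure D2:**
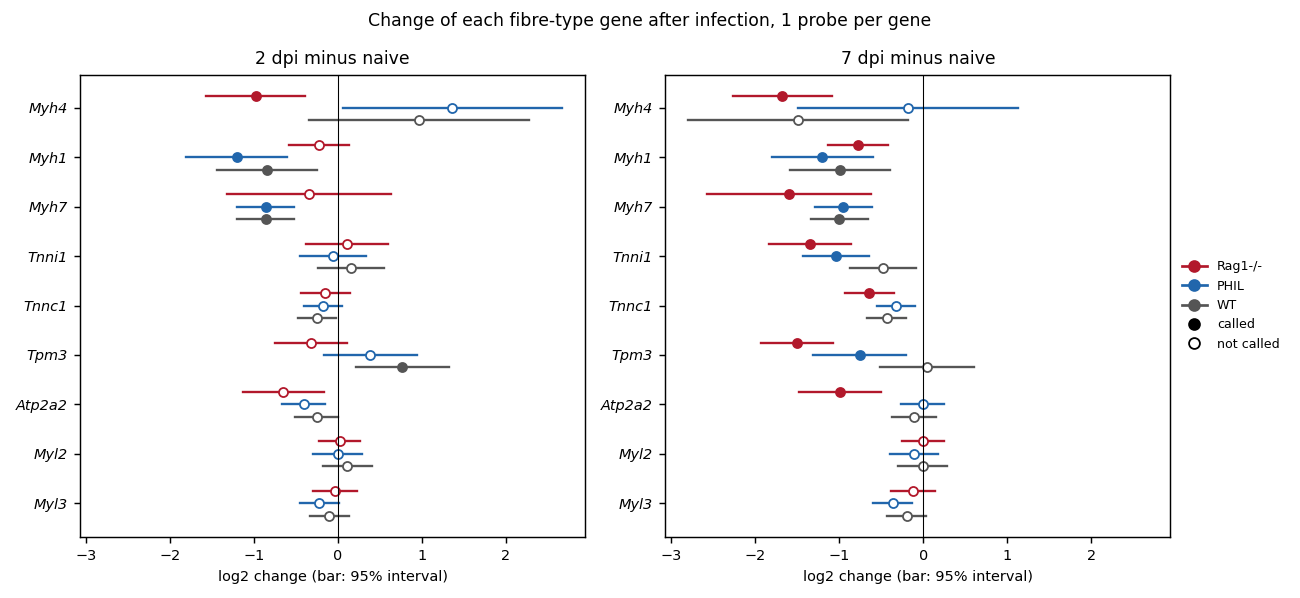
Log2 change against naive muscle (horizontal axis) of each of the 9 genes at 2 and 7 dpi in Rag1-/-, PHIL and WT mice, with its 95% interval from limma and 1 probe per gene; filled points were called. At 7 dpi 7 of 9 genes were called lower in Rag1-/- muscle, 4 in PHIL muscle and 2 in WT muscle. Atp2a2 and Myh1 were read by other probes in Rag1-/- muscle than in PHIL and WT muscle.

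At 2 dpi fewer of the 9 genes were called. In muscle of Rag1-/- mice 1 of 9 was called lower (9.85% of genes called, 3.05% lower), and in PHIL muscle 2 of 9, Myh7 and Myh1 (18.6% called, 7.94% lower). In WT muscle Myh7 and Myh1 were lower and Tpm3 higher, 3 of 9 (23.3% called, 13.1% higher and 10.3% lower). The Tpm3 probe behind that call, ILMN_2426967, measured 6.58, 6.70 and 6.10 at 2 dpi, against 5.35 and 6.04 in naive WT mice, and was at least 1.12-fold higher (adjusted p = 0.0308). In WT muscle at 2 dpi the Tpm3 call was lost without naive replicate 1 or 2 dpi replicates 1 or 2 (adjusted p of 0.0743 to 0.299), and the Myh1 call without either naive array or 2 dpi replicate 1 (0.0886 to 0.111). Between 2 and 7 dpi 3 of 9 genes were lower in each strain and 0 higher: Myh7, Tnni1 and Tpm3 in Rag1-/- muscle (22.9% called, 9.02% lower), and Myh4, Tnni1 and Tpm3 in PHIL muscle (20.3% called, 9.57% lower) and in WT muscle (18.7% called, 8.05% lower). Tnni1, and Tpm3 on ILMN_2426967, were thus called lower at 7 than at 2 dpi in each of the 3 strains. The other Tpm3 probe, ILMN_2444316, changed in the opposite direction between these times, by 0.56 in Rag1-/- muscle, 0.48 in PHIL muscle and 0.29 in WT muscle, and was not called. The Tpm3 call in WT muscle was lost without 2 dpi replicates 1 or 2 or 7 dpi replicates 1 or 2 (adjusted p of 0.0724 to 0.113), and the Myh7 call in Rag1-/- muscle without any array but 2 dpi replicate 2 (0.0523 to 0.117).

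Slow and fast genes were set side by side as the mean change of the 7 slow genes and of the 2 fast genes from the naive mean of the strain. Atp2a2 and Myh1 enter these means by other probes in Rag1-/- muscle than in PHIL and WT muscle. In Rag1-/- muscle at 7 dpi the slow genes averaged -0.89 ± 0.14 and the fast genes -1.22 ± 0.20 (SD, n = 3). In PHIL muscle they averaged -0.51 ± 0.08 and -0.69 ± 0.26, and in WT muscle -0.31 ± 0.08 and -1.24 ± 0.56. Slow minus fast was therefore 0.34 ± 0.17 in Rag1-/- muscle, 0.18 ± 0.21 in PHIL muscle and 0.93 ± 0.52 in WT muscle, with the WT mice between 0.44 and 1.47. Naive mice themselves differed by as much as 0.36 on either side of 0 in PHIL muscle and 0.43 in WT muscle. All WT mice at 7 dpi and all infected Rag1-/- mice lay outside the naive range of their strain, the lowest of these WT mice by a narrow margin. At 2 dpi slow minus fast was 0.41 ± 0.05 in Rag1-/- muscle, -0.27 ± 0.33 in PHIL muscle and -0.12 ± 0.31 in WT muscle. The fast mean rests on 2 genes, and in PHIL and WT muscle on Myh4, which was detected on 13 of 16 arrays there. In Rag1-/- muscle the slow mean includes Myl2 and Myl3, whose signals stood close to the top of the scale. At 7 dpi these 2 genes changed there by -0.003 and -0.12, less than the other slow genes. Their part in slow minus fast was not tested.

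**Figure D3:**
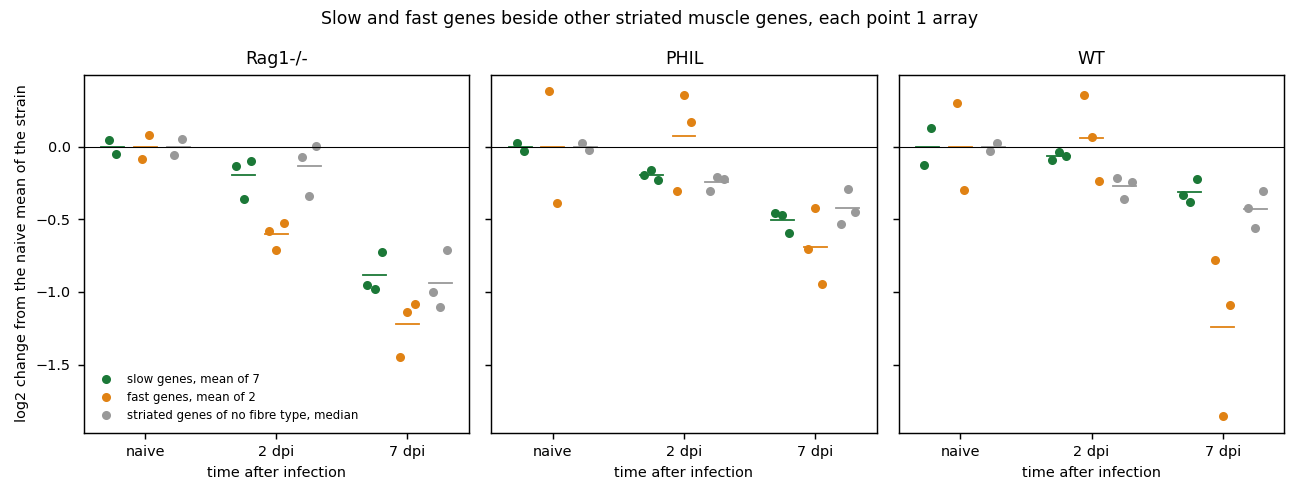
Mean log2 change from the naive mean (vertical axis) of the 7 slow genes, the 2 fast genes and the median of 18 striated muscle genes of no fibre type, on each array of naive, 2 dpi and 7 dpi mice, in panels for Rag1-/-, PHIL and WT muscle. In Rag1-/- mice at 7 dpi the slow genes averaged -0.89, the fast genes -1.22 and the striated genes -0.94. Atp2a2 and Myh1 were read by other probes in Rag1-/- muscle than in PHIL and WT muscle.

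Transcripts of striated muscle that do not mark a fibre type were lower as well. Of 30 such genes listed, 20 were measured in Rag1-/- muscle, and 13 of them were lower and 0 higher at 7 dpi, with a median change of -0.94 where the median of all genes was -0.09. The slow members had a median of -0.99 and the fast members -1.22 there. In PHIL muscle the striated list had a median of -0.45, with 7 of 18 lower, and the slow members -0.36, and in WT muscle -0.46, with 7 of 18 lower, and -0.20, with all genes at -0.07 and -0.06. Of all genes tested, 14.9% were called lower in Rag1-/- muscle, 11.6% in PHIL muscle and 11.8% in WT muscle. In these whole muscles fewer fibres and less RNA per fibre cannot be told apart. Read against the striated median of the same array, Myh7 was still low at 7 dpi, by -0.66 ± 0.40 in Rag1-/- muscle, -0.53 ± 0.12 in PHIL muscle and -0.57 ± 0.25 in WT muscle (SD, n = 3), and already at 2 dpi by -0.62 ± 0.08 in PHIL muscle and -0.59 ± 0.08 in WT muscle. In Rag1-/- muscle at 2 dpi Myh7 was -0.21 ± 0.56 on this scale. Myh7 was not alone in lying low. At 7 dpi Myh1 was 0.17 in Rag1-/- muscle, -0.78 in PHIL muscle and -0.57 in WT muscle. The first value is from ILMN_2865744 and the other 2 are from the dimmer ILMN_2740259, so for Myh1 the strains are not compared on 1 probe. ILMN_2865744 was not set against the striated median in PHIL or WT muscle. In the same order Myh4 was -0.74, 0.24 and -1.06, and Tnni1 was -0.41, -0.61 and -0.05. Tnnc1 on the same scale was 0.30 in Rag1-/- muscle, 0.10 in PHIL muscle and -0.01 in WT muscle at 7 dpi, and Atp2a2 was -0.05 in Rag1-/- muscle.

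Of 15 other genes of slow fibres listed, 11 were measured, and 4 were lower in Rag1-/- muscle at 7 dpi (14.9% of all genes were called lower), namely Csrp3, a Z-disc protein (log2 -1.36), Mybpc1, the slow myosin-binding protein C (-1.20), Casq2, the slow and cardiac calsequestrin (-0.78), and Myoz2, a calcineurin-binding Z-disc protein (-0.60). In PHIL muscle Csrp3 (-1.42) and Mybpc1 (-0.84) were lower, and in WT muscle limma called 0 of 11, with 6 at an unadjusted p under 0.05. Csrp3 was higher in Rag1-/- muscle at 2 dpi (log2 1.09) and lower at 7 dpi. The alpha-actinin gene Actn2 was lower at 2 dpi in PHIL muscle (-0.65) and in WT muscle (-0.66). The medians of the list at 7 dpi were -0.53 in Rag1-/- muscle, -0.27 in PHIL muscle and -0.23 in WT muscle.

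Of 15 other genes of fast fibres listed, 14 were measured, and 3 were called in Rag1-/- muscle at 7 dpi, where 32.5% of all genes were called. There Casq1, the fast calsequestrin (log2 -1.13), and Myoz1, a fast Z-disc protein (-0.91), were lower, while Tpm1, the fast alpha tropomyosin that smooth muscle and other cells also make, was higher (0.69). Tpm1 was also higher in WT muscle (0.89), and Myoz1 lower in PHIL muscle (-0.61). At 2 dpi Casq1 and Eno3, the muscle enolase, were lower in PHIL muscle (-0.79 and -0.61) and in WT muscle (-1.15 and -0.67). The list medians at 7 dpi were -0.23 in Rag1-/- muscle, -0.23 in PHIL muscle and -0.19 in WT muscle. With all arrays normalised together, the naive means of Atp2a1, Mylpf and Tnnc2 by strain were 15.24 to 15.78, beside 15.43 to 15.66 for Myl2. How far the top of the scale limits the list medians was not tested. Smooth muscle markers, 7 of 8 measured, had summed linear signals of 8787 to 10627 at 7 dpi in Rag1-/- mice against 1813 to 2659.9 in naive ones, 7601 to 7669.6 against 2142 to 2153 in PHIL mice, and 7866 to 9066 against 2014 to 2234 in WT mice, and their part in the Tpm1 result was not tested.

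Of 34 listed regulators of fibre type, 23 were measured in Rag1-/- muscle, and at 7 dpi 10 were lower and 1 higher, where 14.9% of all genes were called lower and 17.6% higher. In PHIL muscle 4 of 21 were lower and 0 higher (11.6% of genes lower, 14.9% higher), and in WT muscle 4 of 21 were lower and 1 higher (11.8% lower, 16.3% higher). Those of largest change in Rag1-/- muscle were Prox1, a homeobox factor of slow fibres (log2 -1.45), Esrrb, an oestrogen-related receptor of oxidative fibres (-1.24), Tbx15, a factor of fast fibres (-1.11), and Ppargc1b, a coactivator of mitochondrial genes (-1.06). Esrrb and Ppargc1b were also lower at 7 dpi in PHIL muscle (-0.85 and -0.64) and in WT muscle (-1.10 and -0.80). Ppargc1a, a coactivator of slow and oxidative genes, was lower at 2 dpi in Rag1-/- muscle (-0.88) and higher at 2 dpi in PHIL muscle (0.77) and in WT muscle (1.13). Tead4, which binds the MCAT element of muscle promoters, was read by 2 probes, of which ILMN_3157399 was detected on 1 naive PHIL array. ILMN_2599986 was detected on 0 naive arrays, and at 2 dpi it was at least 2.84-fold higher in Rag1-/- muscle, 1.69-fold in PHIL muscle and 1.76-fold in WT muscle.

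PHIL and WT muscle were compared at each time. With 1 probe per gene, limma called 0 of the 9 genes different in naive muscle, at 2 dpi or at 7 dpi, where 0%, 0% and 0.486% of all genes were called (0.0851% higher and the rest lower at 7 dpi), with 1, 1 and 2 of the 9 at an unadjusted p under 0.05. Myh4 was the one in naive muscle (log2 -2.0, 95% interval -3.44 to -0.57, adjusted p = 0.349) and at 2 dpi (-1.61, interval -2.78 to -0.44). At 7 dpi they were Tnni1 (-0.63, interval -0.98 to -0.28, adjusted p = 0.0807) and Tpm3 (adjusted p = 0.143), for which no fold is given because ILMN_2426967 was detected on 0 of 3 PHIL arrays and 1 of 3 WT arrays. For Myh7 the difference at 7 dpi was -0.05, with an interval of -0.35 to 0.26.

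When every kept probe was tested, 2 of the 14 were called lower in PHIL than in WT muscle at 7 dpi, where 0.542% of 10708 probes were called and 0.42% were lower. They were ILMN_2865744 of Myh1 (log2 -0.67, SE 0.11, adjusted p = 0.0299) and ILMN_1239742 of Atp2a2 (-0.69, SE 0.15, adjusted p = 0.0494). The values of Myh1 were 10.86, 10.83 and 10.75 in PHIL mice, against 11.37, 11.59 and 11.49 in WT mice. Those of Atp2a2 were 11.87, 11.25 and 11.63 in PHIL mice, against 12.08, 12.45 and 12.30 in WT mice. The strains did not overlap on either probe, but the partner probes ILMN_2740259 (-0.15) and ILMN_1245425 (0.04) were not called. For the change since the naive state, limma called 0 of the 9 genes different between PHIL and WT mice at 2 dpi (0.0122% of genes called, 0 of 9 at an unadjusted p under 0.05). At 7 dpi it again called 0 (0% of genes called), and Tpm3 alone had an unadjusted p under 0.05, on a probe detected on 0 naive arrays of either strain. The interval for Myh7 at 7 dpi was -0.44 to 0.52 around 0.04, and that for Myh4 was -0.54 to 3.16.

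The response of Rag1-/- muscle was set against that of WT muscle with all 24 arrays normalised together. At 2 dpi Atp2a2 responded differently: on ILMN_1239742 the change since naive was -0.64 in Rag1-/- muscle and 0.37 in WT muscle, a difference of -1.01 (SE 0.27, 95% interval -1.57 to -0.44, adjusted p = 0.0371). On the other probe, ILMN_1245425, the difference was -0.08 and was not called (adjusted p = 0.838). That probe stood at 87.6 to 98.5% of the array maximum in naive and 2 dpi Rag1-/- mice, which limits the fall it can show. Atp2a2 was the 1 gene of 9 called, where 5.14% of genes were called, 1.85% higher and 3.29% lower. At 7 dpi Tpm3 was the 1 gene of 9 called (1.76% of genes called, 0.868% higher and 0.89% lower): on ILMN_2426967 the change was -1.48 in Rag1-/- muscle and 0.05 in WT muscle, a difference of -1.52 (SE 0.37, interval -2.31 to -0.74, adjusted p = 0.0448). This probe was detected on 0 of 2 naive and 1 of 3 7 dpi WT arrays, so its WT values lie at background and the size of the WT change is not known. On ILMN_2444316, detected on all of these arrays, the difference was -0.33 and was not called (adjusted p = 0.645). Each call was lost without any of 8 of its 10 arrays, all but WT 2 dpi replicate 2 and Rag1-/- 2 dpi replicate 1 for Atp2a2 and all but WT naive replicate 2 and WT 7 dpi replicate 1 for Tpm3, with adjusted p of 0.0517 to 0.130 for Atp2a2 and 0.0511 to 0.166 for Tpm3. For Myh7 the responses at 7 dpi differed by -0.55 (interval -1.44 to 0.34), for Tnni1 by -0.82 (adjusted p = 0.141), for Myh4 by -0.11 (interval -1.83 to 1.60) and for Myh1 by 0.08 (interval -0.75 to 0.90), and none of these 4 was called.

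Naive levels were set side by side with all arrays normalised together. Myh4 was 28.2-fold higher on the 2 naive Rag1-/- arrays than on the 4 naive PHIL and WT arrays (log2 4.82), 3 of which detected it, and 0.0337% of 11875 probes differed as much. ILMN_2740259 of Myh1 was higher by 3.81 on the log2 scale, and ILMN_2426966 of Tpm3 was 4.65-fold higher. ILMN_2426965 and ILMN_2426967 of Tpm3 were detected on both naive Rag1-/- arrays and on 0 of the 4 naive PHIL and WT arrays, so no fold is given for them. The remaining member probes differed by -0.31 to 0.72, and Myh7 itself by -0.31, against a median absolute difference of 0.24 over all probes. The Rag1-/- arrays were also the brighter ones, and strain and array set cannot be told apart, so no test was made. Eif2s3y was detected on 2 of 2 naive Rag1-/- arrays, 1 of 2 naive WT arrays and 0 of 2 naive PHIL arrays. The part of this difference in the naive levels was not tested.

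**Figure D4:**
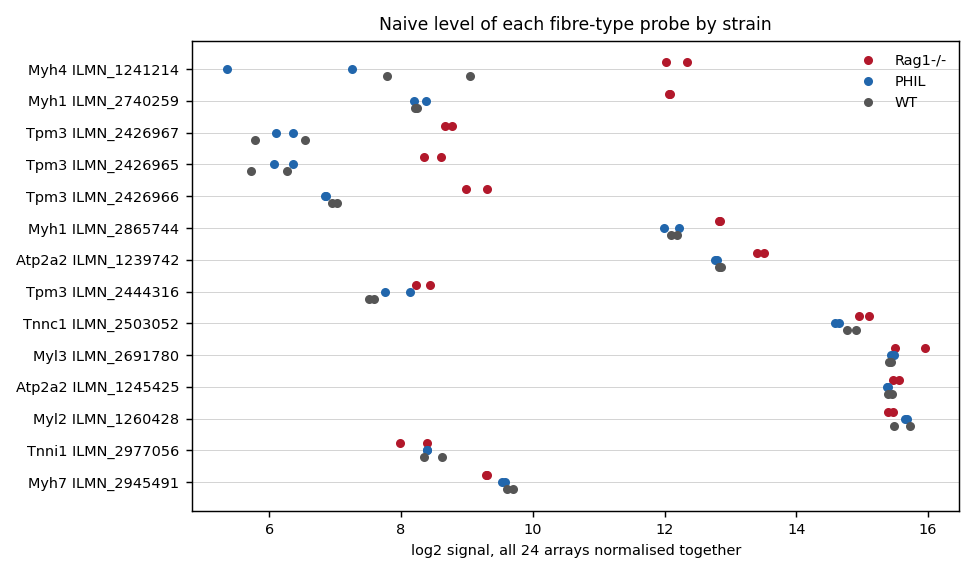
Naive level of each of the 14 probes (normalised log2 signal, all 24 arrays normalised together) on the Rag1-/-, PHIL and WT arrays; each point is 1 naive mouse. Myh4, ILMN_2740259 of Myh1 and 3 of the Tpm3 probes lay higher on the Rag1-/- arrays than on the PHIL and WT arrays; 2 of these Tpm3 probes were detected on no naive PHIL or WT array.

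Correlations between members were taken over arrays that span the 3 times, so they hold the differences between times as well as those between mice. Over the 8 Rag1-/- arrays Myh1 and Myh7 correlated at r = 0.932 and Tnnc1 and Tnni1 at 0.940, and over the 16 PHIL and WT arrays Myh1 and Myh7 correlated at 0.877 and Myh4 and Myh7 at 0.137. Other pairs over the 16 arrays lay lower, at 0.03 for Myh1 and Myh4, 0.08 for Myh7 and Tpm3, -0.32 for Atp2a2 and Tnni1 and -0.44 for Atp2a2 and Tpm3. These are descriptions, since the arrays share strain, time and normalisation. Among 5374 genes detected on all 24 arrays, those most like Myh7 were Rcan2 (r = 0.927), Pink1 (0.925), Larp4b (0.924), Letm1 (0.919) and Ssx2ip (0.902), and those most like Myh4 were Ndufb2 (0.921), Aldh6a1 (0.913), Psg23 (0.911), Acadsb (0.909) and Ndufs4 (0.902). The difference in brightness between the array sets enters these values. Within each array set, over the 8 Rag1-/- arrays Larp4b (0.988) was most like Myh7 and Neu2 (0.989) most like Myh4, and over the 16 PHIL and WT arrays Neurl1a (0.964) and Tlcd4 (0.912).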

How the data were processed

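RNA of whole diaphragms was hybridised to Illumina MouseRef-8 v2.0 arrays, 1 array per mouse. The authors deposited un-normalised mean bead signal, a linear intensity exported from GenomeStudio 1.8, with a detection p-value for each probe and array. The authors also deposited normalised values on a linear intensity scale, used here as an alternative; how they were normalised is not given in the sources used here for that table, and for their analysis the paper's methods describe background subtraction, variance stabilisation, robust spline normalisation and limma. Replicates are separate mice.

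Signals were corrected and quantile normalised with neqc from limma 3.58.1 in R 4.3.3, with an offset of 16. This was done apart for 8 Rag1-/- and 16 PHIL and WT arrays, and over all 24 where Rag1-/- was set against WT. A probe was kept when at least 2 arrays of its set had a detection p-value below 0.01, and each gene was read by its kept probe of widest interquartile range; results given by probe number come from a fit over every kept probe. Groups were compared with limma, with residual df of 5, 10 and 15, in 16 comparisons. Benjamini-Hochberg adjustment covered the 3 Rag1-/- comparisons together and every other comparison alone. The fit was tested on simulated data. No columns of the authors' own comparisons were used.

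The fibre-type genes and all lists were chosen with earlier results of these data known. All 10 genes were described with every probe; of each other list up to 4 called genes of largest change per comparison were named, and the 5 genes of highest Pearson r to Myh7 and to Myh4. Promoters are from RefSeq (GRCm38.p6); Python 3.11.15 was used for these and the figures. A probe not detected on any array of a group has only a bound there, computed as the fold between the mean of the brighter group and the mean, per array, of the higher of the probe's own signal and the lowest detected signal.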

Additional observations from a re-analysis of the deposited data

Results flagged for a closer look

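On 1 probe each, 2 of the fibre-type genes were called different in response between Rag1-/- and WT muscle. Atp2a2 (ILMN_1239742) changed since naive by 1.01 less on the log2 scale at 2 dpi in Rag1-/- than in WT muscle (difference -1.01, SE 0.27, adjusted p = 0.0371 by limma's interaction contrast). Every infected Rag1-/- mouse lay below its naive mice on both Atp2a2 probes. On ILMN_1245425 the difference was -0.08 (adjusted p = 0.838). That probe stood at 87.6 to 98.5% of the array maximum in naive and 2 dpi Rag1-/- mice, which limits the fall it can show. Tpm3 (ILMN_2426967) differed by -1.52 at 7 dpi (SE 0.37, adjusted p = 0.0448), with all 3 Rag1-/- mice below their naive mice. This probe was detected on 0 of 2 naive and 1 of 3 7 dpi WT arrays, so the size of the WT change is not known, and on ILMN_2444316 the difference was -0.33 (adjusted p = 0.645). Each call was lost without any of 8 of its 10 arrays. Both genes were read from arrays of different brightness in the 2 strains, and the part of brightness in these differences was not tested. Groups held 2 or 3 arrays, so no array was examined as an outlier within its group.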

How the results depend on the processing

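Counts of called genes among the 9 changed with the processing as follows. At 7 dpi against naive the count of 7 in Rag1-/- muscle was 4 with a 2-fold threshold, that of 4 in PHIL muscle was 0 with scaling to a common median and 2 at 2-fold, and that of 2 in WT muscle was 0 with median scaling, 0 at 2-fold and 4 with no fold threshold. Median scaling moved the median of all genes to 0.39 in PHIL and 0.36 in WT muscle; relative to it Myh7 was -0.81 and -0.85. At 2 dpi the count of 1 in Rag1-/- muscle was 2 without background correction, with normexp, with all arrays normalised together, with the authors' values, with detection required on every array, with only the groups compared, with a replicate block, with trend and robust fitting and with array weights, and 0 at 2-fold and with each comparison adjusted alone. That of 2 in PHIL muscle was 1 with the probe of highest mean and 1 at 2-fold, and that of 3 in WT muscle was 1 without background correction, 1 with the authors' values and 0 at 2-fold. For 7 against 2 dpi the count of 3 was 5 in Rag1-/- muscle with no fold threshold; in PHIL muscle it was 1 with the authors' values, 1 with detection on every array and 5 over every probe; and in WT muscle it was 1 without background correction, with normexp, with the authors' values, with detection on every array and at 2-fold. For PHIL against WT at 7 dpi the count of 0 was 1 with detection on every array, with the probe of highest mean and with trend and robust fitting, and 2 over every probe and with array weights.

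For the response of Rag1-/- against WT muscle the count of 1 at 2 dpi was 2 without background correction and with the authors' values, 3 with normexp and with median scaling, and 0 with no filter, with the probe of highest mean and with only the groups compared. The count of 1 at 7 dpi was 2 without background correction, with normexp, with the authors' values, over every probe, with trend and robust fitting and with array weights, 3 with median scaling, and 0 with no filter, with the probe of highest mean, with only the groups compared and with detection of Eif2s3y as a term. The Eif2s3y term was chosen after seeing the data.

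Slow minus fast was 0.78 at 7 dpi and 0.57 at 2 dpi in Rag1-/- muscle, -0.86 at 2 dpi in PHIL muscle and -0.60 at 2 dpi in WT muscle with the probe of highest mean, and 0.53 at 7 dpi in Rag1-/- muscle without background correction. Reading Tpm3 by ILMN_2444316, as the probe of highest mean, turned its change to 0.77 for 7 dpi against naive and 0.56 for 7 against 2 dpi in Rag1-/- muscle, 0.86 and 0.48 in PHIL muscle, 0.29 for 7 against 2 dpi in WT muscle, and 0.18 for PHIL against WT at 7 dpi. Detection on every array chose the same probe in PHIL and WT muscle. Myh1 at 2 dpi in WT muscle was 0.12 with its other probe, and Tnni1 at 7 dpi in WT muscle was 0.10 with median scaling.

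Leaving out 1 array gave 4 to 7, 0 to 1 and 2 to 4 called genes in Rag1-/- muscle (7 dpi and 2 dpi against naive, and 7 against 2 dpi), 3 to 4, 2 to 3 and 2 to 3 in PHIL muscle, and 2 to 3, 1 to 3 and 2 to 2 in WT muscle. It gave 0 to 1 for PHIL against WT at 7 dpi, 0 to 0 for the other PHIL against WT comparisons, and 0 to 1 and 0 to 2 for the Rag1-/- response at 2 and 7 dpi. The count of 4 in Rag1-/- muscle was reached without naive replicate 1.

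Replicate numbers did not pair the samples. Same-numbered arrays deviated together with r of -0.18 to 0.14 over 7 Rag1-/- pairs and -0.18 to 0.22 over 36 pairs of the others. With the replicate number as a block, 2 genes were called at 2 dpi in Rag1-/- muscle instead of 1, and the Tpm3 difference between Rag1-/- and WT at 7 dpi had an adjusted p of 0.0620. Over all genes the calls at 7 dpi against naive numbered 2818 in Rag1-/- muscle, 2181 in PHIL muscle and 2310 in WT muscle, and 1590, 1046 and 1118 without background correction. A block for the BeadChip was not run, since the chip is not given in the sources used here. The number of arrays and the low signal of Myh4 and Tpm3 in PHIL and WT muscle limit these results.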

Other observations

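Muscle genes of embryonic and regenerating fibres, 12 listed, were called higher more often than lower. In Rag1-/- muscle 8 of 9 measured were higher at 2 dpi and 3 at 7 dpi, where 6.8% and 17.6% of all genes were called higher. In PHIL muscle 5 of 8 were higher at each time (10.6% and 14.9% of all genes), and in WT muscle 6 of 8 at each time (13.1% and 16.3%). Myl4, the embryonic light chain, was higher at 7 dpi by 4.22 on the log2 scale in Rag1-/- muscle, 3.70 in PHIL muscle and 4.01 in WT muscle. Myh8, the perinatal heavy chain that neighbours Myh4, was higher by 4.02, 3.57 and 3.91 in the same muscles, where Myh4 itself changed by -1.68, -0.18 and -1.49. Actc1 was lower at 2 dpi in PHIL muscle (log2 -2.37) and WT muscle (-2.18) and higher at 7 dpi (0.87 and 1.15).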
